A study of Rattus norvegicus with 12 samples.

Results

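Rat astrocytes in which SHP was targeted by siRNA were compared with control astrocytes, both given interferon-γ and a compound that the labels call only GW. The comparison used the 3 arrays titled for SHP siRNA and the 3 titled for control siRNA under that treatment, 6 of the 12 arrays of the study, and differences were also taken between arrays that carry the same number (1, 2 or 3) in their titles. The cells were astrocytes of the cerebral cortex of Sprague-Dawley rats 1 day old, kept for 2 days in serum-free MEM to deplete microglia and meningeal cells. All 12 arrays came from cells transfected with an siRNA, and the treatment lasted 3 h. The 4 groups, each of 3 arrays, were an untreated control siRNA group (siCon), IFN-γ after control siRNA (siCon_IFNg), IFN-γ plus GW after control siRNA (siCon_IFNg_GW, here the control arrays) and IFN-γ plus GW after SHP siRNA (siSHP_IFNg_GW, here the SHP siRNA arrays). No group had SHP siRNA without GW or without IFN-γ, so the difference between the siRNAs is known only under both agents. The siRNA sequences, the target of GW and the doses are not given in the sources used here.

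SHP, read here as small heterodimer partner, is an orphan nuclear receptor encoded by Nr0b2. It lacks a DNA-binding domain and acts by binding other nuclear receptors and transcription factors, mostly as a corepressor, and it is best known for holding back bile acid synthesis in the liver. Interferon-γ signals through the JAK kinases to factors that bind GAS elements and induce IRF1 and other factors. These in turn induce chemokines, GTPases of host defence, antiviral proteins and the antigen presentation machinery. The comparison asks whether the levels of such genes under interferon-γ and GW depended on the siRNA.

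Values are log2 expression for 18166 genes, so a difference of 1 is a doubling. A level under 5.34, the 95th percentile of olfactory and vomeronasal receptor genes, was treated as background. The labels do not state whether arrays of a group came from separate cultures. A p-value here therefore reflects only how the arrays of a group scattered, and that scatter may be technical. In bulk RNA, fewer cells of a type and less RNA per cell cannot be told apart.

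The siRNA target itself could not be judged from the arrays. Nr0b2 read 4.70, 4.78 and 4.91 on the control arrays numbered 1, 2 and 3, and 5.12, 4.94 and 4.81 on the SHP siRNA arrays. All 6 values, and the 6 of the other groups, lay under background, and the groups overlapped. The difference was 0.16 (SE 0.14, n = 3 arrays a group, limma adjusted p = 1 over all genes). The SHP siRNA is therefore known from the labels alone, and every direction below is that of the arrays labelled with it.

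Over all 12 arrays, no gene passed an adjusted p of 0.05 with limma, either higher (0%) or lower (0%). At an unadjusted p under 0.05, 184 genes (1.01%) were higher and 232 (1.28%) lower. With replicate number as a block the count was again 0, with 972 (5.35%) at an unadjusted p under 0.05, and the smallest adjusted p was 0.062, for Tfec. The groups did not overlap for 407 genes (2.24%) that were higher under SHP siRNA and 769 (4.23%) that were lower.

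The arrays numbered 1 differed from those numbered 2 and 3. Across all genes, the same-number differences of numbers 2 and 3 correlated with each other at r = 0.54, whereas those of number 1 correlated with number 2 at 0.04 and with number 3 at -0.01 (genes are not independent, and no test was made). A model that let the siRNA difference of number 1 depart from that of numbers 2 and 3 called 131 genes (0.721%), of which 110 (0.606%) had a smaller or more negative difference in number 1. The control array numbered 1 already had high interferon genes. The median level of the 36 antiviral genes measured was 9.29 on the control array numbered 1, against 7.49 and 7.51 on numbers 2 and 3, and it was 9.51 on the siCon array numbered 1, which had no interferon-γ. The part of these levels in the difference between array numbers was not tested.

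Without the arrays numbered 1, which leaves 2 arrays a group and 8 in the fit, limma called 267 genes: 246 higher (1.35%) and 21 lower (0.116%) under SHP siRNA. With replicate number as a block, a setting added after the data were seen, the same arrays gave 220 higher and 11 lower. Of the 246, 118 were higher by more than 1 and 31 by more than 2, while 0 of the 21 were lower by more than 1. In number 1 the median difference of the 246 genes was -0.00, 122 of them were positive, 25 exceeded 0.5, and 96 passed the test of number 1 against the others. The calls below therefore rest on 4 arrays of the comparison, unless another fit is named.

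**Figure D1:**
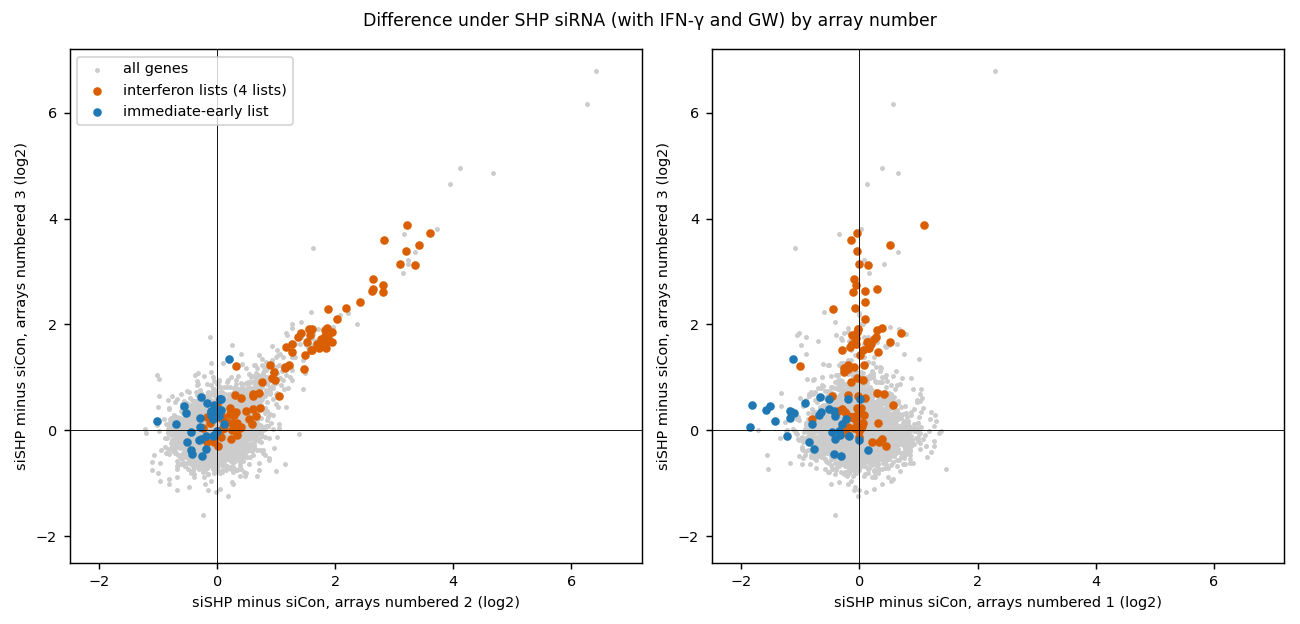
Same-number differences, SHP siRNA minus control siRNA with IFN-γ and GW (log2), for 18166 genes; the left panel sets number 3 against number 2 and the right panel sets number 3 against number 1. Grey points are all genes, orange points are the interferon signalling, GTPase, antiviral and antigen presentation lists, and blue points are immediate-early genes. Orange points follow the diagonal on the left (r = 0.54 over all genes) and stand in a vertical column near 0 on the right (r = -0.01).

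The CXCR3 ligands, chemokines that draw activated T cells, showed the largest differences among the chemokines. Cxcl9 read 6.75, 5.19 and 5.11 on the control arrays numbered 1, 2 and 3, and 9.04, 11.60 and 11.89 on the SHP siRNA arrays. Every SHP siRNA array lay above every control array, and number 1 had the highest control and the lowest SHP siRNA value. Since the control arrays numbered 2 and 3 lay under background, the differences there were at least 6.26 and 6.55, and the difference in number 1 was 2.29. Without number 1 the fitted difference was 6.60 (SE 0.18, adjusted p = 6.51e-06). Over the 12 arrays it was 5.16 (SE 0.87, adjusted p = 1).

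Cxcl11 read 8.92, 6.54 and 6.68 on the control arrays and 9.58, 11.21 and 11.54 on the SHP siRNA arrays. Its same-number differences were 0.66, 4.67 and 4.87, so that the groups did not overlap but number 1 moved little. Without number 1 it was 27.2-fold higher (log2 4.77, SE 0.18, adjusted p = 1.29e-05). Cxcl10 read 10.91, 9.01 and 9.11 on the control arrays and 11.56, 12.36 and 12.48 on the SHP siRNA arrays, 10.3-fold higher without number 1 (log2 3.36, SE 0.14, adjusted p = 1.94e-05). For all 3 ligands the SHP siRNA arrays numbered 2 and 3 lay near those of interferon-γ alone, where Cxcl9 read 12.19 and 11.64 and Cxcl10 read 12.50 and 12.15.

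The promoters of 4 genes with large differences without number 1, all known interferon-γ targets, are shown because their levels moved together. They are RefSeq sequences on assembly GRCr8, each a window of 300 bases around the annotated start, written 5′ to 3′ on the gene's strand. Capitals mark matches to the GAS letters TTCNNNGAA, which read the same on both strands, or to the ISRE core, 2 copies of GAAA with 2 bases between them (of TTTC on the other strand).
Cxcl9, chr14:16006916-16007215, plus strand: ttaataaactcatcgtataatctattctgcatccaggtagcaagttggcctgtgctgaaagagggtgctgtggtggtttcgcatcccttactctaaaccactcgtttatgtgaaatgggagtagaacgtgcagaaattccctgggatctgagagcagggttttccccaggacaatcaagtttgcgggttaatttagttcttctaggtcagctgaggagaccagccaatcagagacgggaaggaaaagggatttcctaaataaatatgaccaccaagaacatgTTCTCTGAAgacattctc
Cxcl10, chr14:15988816-15989115, plus strand: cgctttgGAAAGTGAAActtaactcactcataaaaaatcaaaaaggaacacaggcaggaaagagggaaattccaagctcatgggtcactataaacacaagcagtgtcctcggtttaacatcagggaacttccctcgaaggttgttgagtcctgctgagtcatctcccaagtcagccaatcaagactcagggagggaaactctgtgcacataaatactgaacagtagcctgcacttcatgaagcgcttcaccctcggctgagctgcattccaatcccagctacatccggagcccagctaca
Irf8, chr19:65699034-65699333, plus strand: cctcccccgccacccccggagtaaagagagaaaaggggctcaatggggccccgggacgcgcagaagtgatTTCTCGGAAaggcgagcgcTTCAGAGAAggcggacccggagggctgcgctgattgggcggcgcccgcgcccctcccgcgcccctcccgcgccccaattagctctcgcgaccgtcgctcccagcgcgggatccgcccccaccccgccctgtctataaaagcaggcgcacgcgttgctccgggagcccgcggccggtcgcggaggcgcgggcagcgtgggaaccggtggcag
Socs1, chr10:5389324-5389623, plus strand: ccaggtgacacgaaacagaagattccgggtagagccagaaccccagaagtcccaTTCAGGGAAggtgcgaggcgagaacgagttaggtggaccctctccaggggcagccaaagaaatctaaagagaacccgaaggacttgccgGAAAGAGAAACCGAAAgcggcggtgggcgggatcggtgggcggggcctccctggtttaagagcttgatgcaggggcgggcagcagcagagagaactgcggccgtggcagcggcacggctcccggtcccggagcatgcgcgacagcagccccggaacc
The windows held 1 GAS match for Cxcl9, 1 ISRE core for Cxcl10, 2 GAS matches for Irf8, and 1 GAS match with 2 overlapping ISRE cores for Socs1. Of the 246 higher genes, 205 had a promoter in the table: 36 (17.6%) held the GAS letters and 41 (20.0%) the ISRE core. For the 16050 promoters of genes on the arrays, the shares were 7.84% and 3.58%. For all 33469 promoters of that length, which include genes not on the arrays, they were 8.87% and 3.92%. Of the 18 lower genes with a promoter, 1 held the GAS letters and 2 the ISRE core. A match is a description of these letters and not a shown binding site.

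Among the other chemokines, Ccl7 and Ccl12, which attract monocytes, were also higher without number 1. Ccl7, named after its values were seen, read 11.22, 10.04 and 9.65 on the control arrays and 10.79, 11.46 and 11.69 on the SHP siRNA arrays, so that the groups overlapped because of number 1. Without number 1 it was 3.31-fold higher (log2 1.73, SE 0.15, adjusted p = 9.87e-04). Ccl12, a monocyte chemokine of rodents, was higher in each number, by 0.78, 1.63 and 1.82 (1.73 without number 1, SE 0.16, adjusted p = 0.0013). Ccl2, the main monocyte chemokine, differed by 0.11, 0.35 and 0.54 and did not pass (0.44 without number 1, SE 0.09, adjusted p = 0.074). Of the 20 chemokines measured, 6 were higher (30%) and 3 lower without number 1, against 1.35% and 0.116% of all genes. With the replicate block added, 6 were higher and 2 lower. The list did not move in 1 direction.

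**Figure D2:**
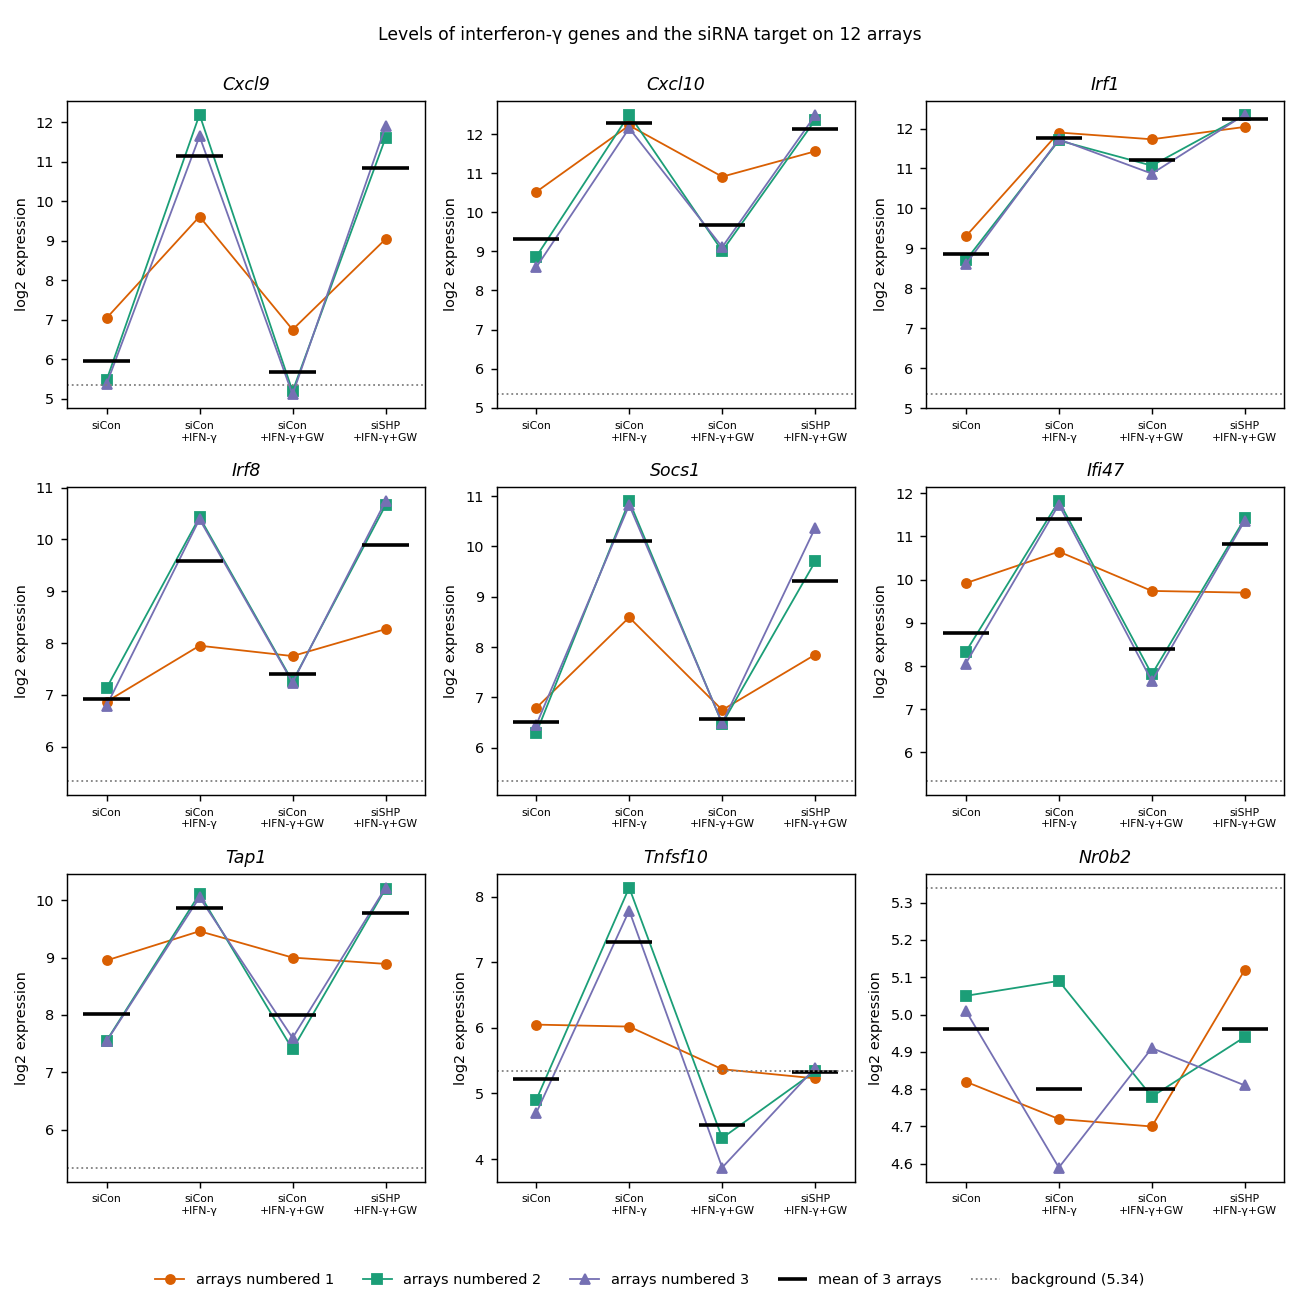
Log2 expression of 8 interferon genes and of the siRNA target Nr0b2 on the 12 arrays, by group; points are single arrays, lines join arrays of the same number, black bars are means of 3 arrays and the dotted line is background (5.34). The arrays numbered 2 and 3 fall from interferon-γ alone to interferon-γ with GW and are high again under SHP siRNA in all but Tnfsf10 (Cxcl9 at 5.19 and 5.11 against 11.60 and 11.89), the array numbered 1 changes less for most genes, and Nr0b2 stays under background throughout.

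Transcription factors of the interferon response were higher under SHP siRNA in numbers 2 and 3. Irf1, induced early by interferon-γ, read 11.73, 11.07 and 10.87 on the control arrays and 12.04, 12.34 and 12.35 on the SHP siRNA arrays. The groups did not overlap, and the 3 differences were 0.31, 1.27 and 1.48 (1.37 without number 1, SE 0.09, adjusted p = 2.31e-04). Irf8, a factor of myeloid cells that interferon-γ also induces elsewhere, showed a wider gap. It read 7.75, 7.26 and 7.24 on the control arrays and 8.27, 10.66 and 10.74 on the SHP siRNA arrays, 11.0-fold higher without number 1 (log2 3.46, SE 0.11, adjusted p = 7.13e-06). In number 1 the Irf8 difference was 0.52.

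The factors that mainly serve type I interferon were higher as well; they were named after their values were seen. Irf7, the amplifier of type I interferon, read 11.91, 7.81 and 7.98 on the control arrays and 12.01, 10.22 and 10.41 on the SHP siRNA arrays, and number 1 was near its highest level in both groups. Without number 1 Irf7 was higher by 2.42, Irf9 by 1.55 and Stat2 by 1.45 (adjusted p = 2.25e-04, 7.38e-05 and 3.12e-04), and these last are both subunits of the factor ISGF3. In number 1 these 3 genes differed by 0.10, 0.06 and 0.01. Jak2, a kinase bound to the interferon-γ receptor, was higher in each number, by 0.42, 0.61 and 0.69 (adjusted p = 0.013 without number 1). Batf2, a basic leucine zipper factor, was higher by 1.64 without number 1 (adjusted p = 0.0032) and differed by 0.16 in number 1.

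Feedback inhibitors were higher too. Socs1, which blocks the JAK kinases, read 6.75, 6.48 and 6.49 on the control arrays and 7.85, 9.70 and 10.37 on the SHP siRNA arrays. Every SHP siRNA array lay above every control array, and the differences were 1.10, 3.21 and 3.88 (3.54 without number 1, SE 0.19, adjusted p = 6.89e-05). Usp18, which removes ISG15 and damps type I interferon signalling, differed by -0.45 in number 1 and by 1.87 and 2.30 in numbers 2 and 3 (2.09 without number 1, adjusted p = 2.82e-04). In all, 10 of the 17 interferon signalling genes measured were higher without number 1 and 0 were lower, against 1.35% and 0.116% of all genes. The list's median difference was 0.06 in number 1, 0.61 in number 2 and 1.22 in number 3. The receptor genes Ifngr1 and Ifngr2 were among the 7 that did not pass.

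The interferon-inducible GTPases, which attack vacuoles holding intracellular pathogens, were higher as a whole list. All 9 members measured, of 13 listed, were higher without number 1, against 1.35% of all genes. All 9 were positive in numbers 2 and 3. The median difference was 0.12 in number 1, 2.63 in number 2 and 2.63 in number 3. The median level on the control arrays was 9.83, 7.96 and 7.94 in the 3 numbers, and 9.78, 11.01 and 11.05 on the SHP siRNA arrays. Number 1 thus lay between the control and SHP siRNA levels of the other numbers in both groups.

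Ifi47, an immunity-related GTPase, read 9.74, 7.81 and 7.65 on the control arrays and 9.70, 11.42 and 11.37 on the SHP siRNA arrays. It was 12.7-fold higher without number 1 (log2 3.67, SE 0.11, adjusted p = 6.72e-06), while the difference in number 1 was -0.04. The related Igtp and Irgm were higher by 3.24 and 2.63 without number 1 and by 0.15 and 0.10 in number 1. The guanylate-binding proteins Gbp7 and Gbp2 were higher by 3.12 and 1.80 without number 1 (adjusted p = 2.53e-05 and 0.0019) and differed by 0.00 and 0.12 in number 1. Gbp4 was higher in each number, by 0.71 in number 1 and by at least 1.42 and 1.65 in numbers 2 and 3, where the control arrays were under background.

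Some rat genes of the same kind stood among the largest differences and were named after their values were seen. Ifgga4l read 7.39, 4.09 and 4.08 on the control arrays and 7.96, 10.36 and 10.24 on the SHP siRNA arrays, a difference of at least 5.01 and 4.90 in numbers 2 and 3 (limma adjusted p = 2.77e-05 without number 1). Ifgga2l2 was 13.6-fold higher without number 1 (log2 3.76, SE 0.12, adjusted p = 6.72e-06) and differed by 0.03 in number 1. Close relatives in these families can share array probes, so their values may not be independent.

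Of the 36 antiviral genes measured, 25 (69.4%) were higher without number 1 and 0 lower, against 1.35% and 0.116% of all genes. The median difference of the list was -0.03 in number 1, 1.32 in number 2 and 1.60 in number 3. Rsad2 (viperin), which makes a chain-terminating nucleotide, read 11.52, 7.66 and 7.65 on the control arrays and 11.47, 10.86 and 11.04 on the SHP siRNA arrays. Number 1 was above every other array in both groups, and without it Rsad2 was 9.82-fold higher (log2 3.30, SE 0.18, adjusted p = 7.36e-05). Without number 1, the fitted difference was 3.21 for Ifit3, an RNA sensor partner, and 2.24 for Isg15, a ubiquitin-like modifier. Some control arrays of Ifit3 lay under background, so its difference has no exact size. In number 1, Ifit3 and Isg15 differed by -0.15 and -0.07. Mx1, a dynamin-like GTPase, read 11.85 and 11.82 in number 1, and rose without it from 7.23 and 7.18 to 8.79 and 9.09 (adjusted p = 0.0057). Dtx3l, a ubiquitin ligase, and Samhd1, which depletes nucleotides, were higher by 1.90 and 2.07 without number 1 (adjusted p = 9.49e-05 and 1.36e-04) and differed by 0.38 and 0.09 in number 1. Zc3hav1, an RNA-binding antiviral protein, was higher by 0.97 without number 1 (adjusted p = 0.0013) and differed by 0.06 in number 1. Rsad2, Ifit3, Isg15 and Mx1 were named after their values were seen.

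Within antigen presentation, 8 of the 27 genes measured were higher without number 1 (29.6%) and 0 lower. Over all genes the shares were 1.35% and 0.116%. Tap1, the peptide transporter, read 9.00, 7.40 and 7.60 on the control arrays and 8.89, 10.20 and 10.22 on the SHP siRNA arrays. It was 6.55-fold higher without number 1 (log2 2.71, SE 0.09, adjusted p = 7.13e-06) and differed by -0.11 in number 1. Nlrc5, the transactivator of class I genes, was 6.73-fold higher (log2 2.75, SE 0.18, adjusted p = 1.94e-04), and the immunoproteasome subunits Psmb9 and Psmb8 were higher by 1.66 and 0.84 (adjusted p = 4.14e-04 and 0.018). In number 1 the differences of Nlrc5, Psmb9 and Psmb8 were -0.09, -0.06 and -0.14.

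Ciita, the transactivator of class II genes, was among those that did not pass. It read 5.13, 4.84 and 4.73 on the control arrays and 4.89, 5.15 and 5.07 on the SHP siRNA arrays, all under background, and its difference without number 1 was 0.32 (adjusted p = 0.29). With interferon-γ alone it had read 6.04 and 6.11 in numbers 2 and 3. The median difference of the list was -0.12, 0.38 and 0.25 in the 3 numbers. Psmb8 and Ciita were named after their values were seen.

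Cytokines and surface molecules were mixed: 6 of the 31 measured were higher without number 1 (19.4%) and 0 lower. Over all genes the shares were 1.35% and 0.116%. Cd274, which encodes the T cell inhibitor PD-L1, read 9.39, 7.63 and 7.97 on the control arrays and 9.82, 10.86 and 11.11 on the SHP siRNA arrays. The groups did not overlap, and Cd274 was 9.10-fold higher without number 1 (log2 3.19, SE 0.16, adjusted p = 5.29e-05). The costimulatory receptor Cd40 was higher in each number, by 0.44, 0.89 and 0.73 (0.81 without number 1, SE 0.13, adjusted p = 0.023). Nos2, the inducible nitric oxide synthase, was higher by 0.64 in number 1 and by at least 1.21 and 1.50 in numbers 2 and 3 (adjusted p = 7.04e-04 without number 1). Il1a, named after its values were seen, was higher by 0.62, 1.10 and 1.13 (adjusted p = 0.0012 without number 1).

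A few interferon-γ genes stayed low under SHP siRNA. Tnfsf10 (TRAIL), a death ligand, read 5.37, 4.32 and 3.87 on the control arrays and 5.23, 5.34 and 5.39 on the SHP siRNA arrays, all near or under background, so that only 0.00 and 0.05 of the difference in numbers 2 and 3 lay above it. It passed without number 1 (1.27, SE 0.17, adjusted p = 0.0092), yet with interferon-γ alone it had read 8.14 and 7.79. Il15, a cytokine for natural killer cells, differed by -0.08 in number 1 and by at least 0.46 and 0.54 in numbers 2 and 3, and did not pass (adjusted p = 0.45 without number 1). Against interferon-γ alone, the difference of the SHP siRNA arrays numbered 2 and 3 was -2.60 for Tnfsf10 (adjusted p = 1.82e-04) and -1.42 for Il15 (adjusted p = 0.0079).

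Genes of other functions, named after their values were seen, stood among the largest differences. Acot1, an acyl-CoA thioesterase, read 4.52, 5.20 and 4.89 on the control arrays and 4.65, 9.14 and 9.54 on the SHP siRNA arrays. Only numbers 2 and 3 of the SHP siRNA arrays were above background, which puts the differences at 3.80 and 4.20 or more (limma adjusted p = 1.29e-05 without number 1). In number 1 Acot1 was under background in all 4 groups. The fitted change of Acot1 with interferon-γ alone over siCon was 5.12 without number 1. Ubd, a ubiquitin-like modifier, was higher by at least 2.08 and 2.47 in numbers 2 and 3 (adjusted p = 0.0015 without number 1), and it was under background in both groups of number 1. Sectm1b was higher by at least 3.06 and 3.64 in numbers 2 and 3 and differed by -0.35 in number 1. Hk2, a hexokinase of glycolysis, was 3.05-fold higher without number 1 (log2 1.61, SE 0.08, adjusted p = 5.65e-05) and differed by -0.29 in number 1.

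Differences that appeared in every array number were counted by sign and size, not by adjusted p. By sign alone, 1784 of the 18166 genes were positive and 3205 negative in all 3 numbers. In 27 genes (0.149%) all 3 same-number differences exceeded 0.5, and in 2 genes (0.011%) all 3 were below -0.5. Neither of these 2 had a group mean over background. Tnfaip2, a TNF-induced gene, read 10.07, 9.73 and 9.68 on the control arrays and 10.95, 10.54 and 10.66 on the SHP siRNA arrays, so that each number differed by a like amount (0.88, 0.81 and 0.98). Without number 1 it was 1.86-fold higher (log2 0.90, SE 0.09, adjusted p = 0.0015), and over the 12 arrays the adjusted p was 1. Cx3cl1 (fractalkine), a chemokine read by microglia, differed by 0.72, 1.06 and 0.99 and was 2.04-fold higher without number 1 (adjusted p = 0.0024). Neither gene's groups overlapped.

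Tfec, a basic helix-loop-helix factor of myeloid cells, came nearest to passing with number 1 included. It read 7.33, 6.82 and 6.86 on the control arrays and 8.36, 7.82 and 7.54 on the SHP siRNA arrays, with differences of 1.03, 1.00 and 0.68. The adjusted p was 0.062 with the replicate block, 1 without it, and 0.026 where number 1 formed a batch of its own, the only gene to pass there. Tnip3, an inhibitor of NF-κB signalling, differed by 0.75, 1.06 and 1.44 (1.25 without number 1, adjusted p = 0.012). Ripk2, a kinase that acts below NOD receptors, differed by 1.06, 0.55 and 0.61 (0.58 without number 1, adjusted p = 0.024). Enpp2 (autotaxin), named after its values were seen, differed by 0.97, 0.72 and 0.57 (0.64 without number 1, adjusted p = 0.035).

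Some genes with small p over the 12 arrays are adaptors of innate signalling. Tifa, an adaptor of TRAF6, differed by 0.35, 0.97 and 1.13 and Themis2, an adaptor of B cells and macrophages, by 0.52, 1.96 and 1.96. Both passed without number 1, at an adjusted p of 0.0018 and 4.60e-05. Hivep1, a zinc finger factor, differed evenly, by 0.42, 0.36 and 0.52, and did not pass in either fit (adjusted p = 1 over 12 arrays and 0.18 without number 1).

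**Figure D3:**
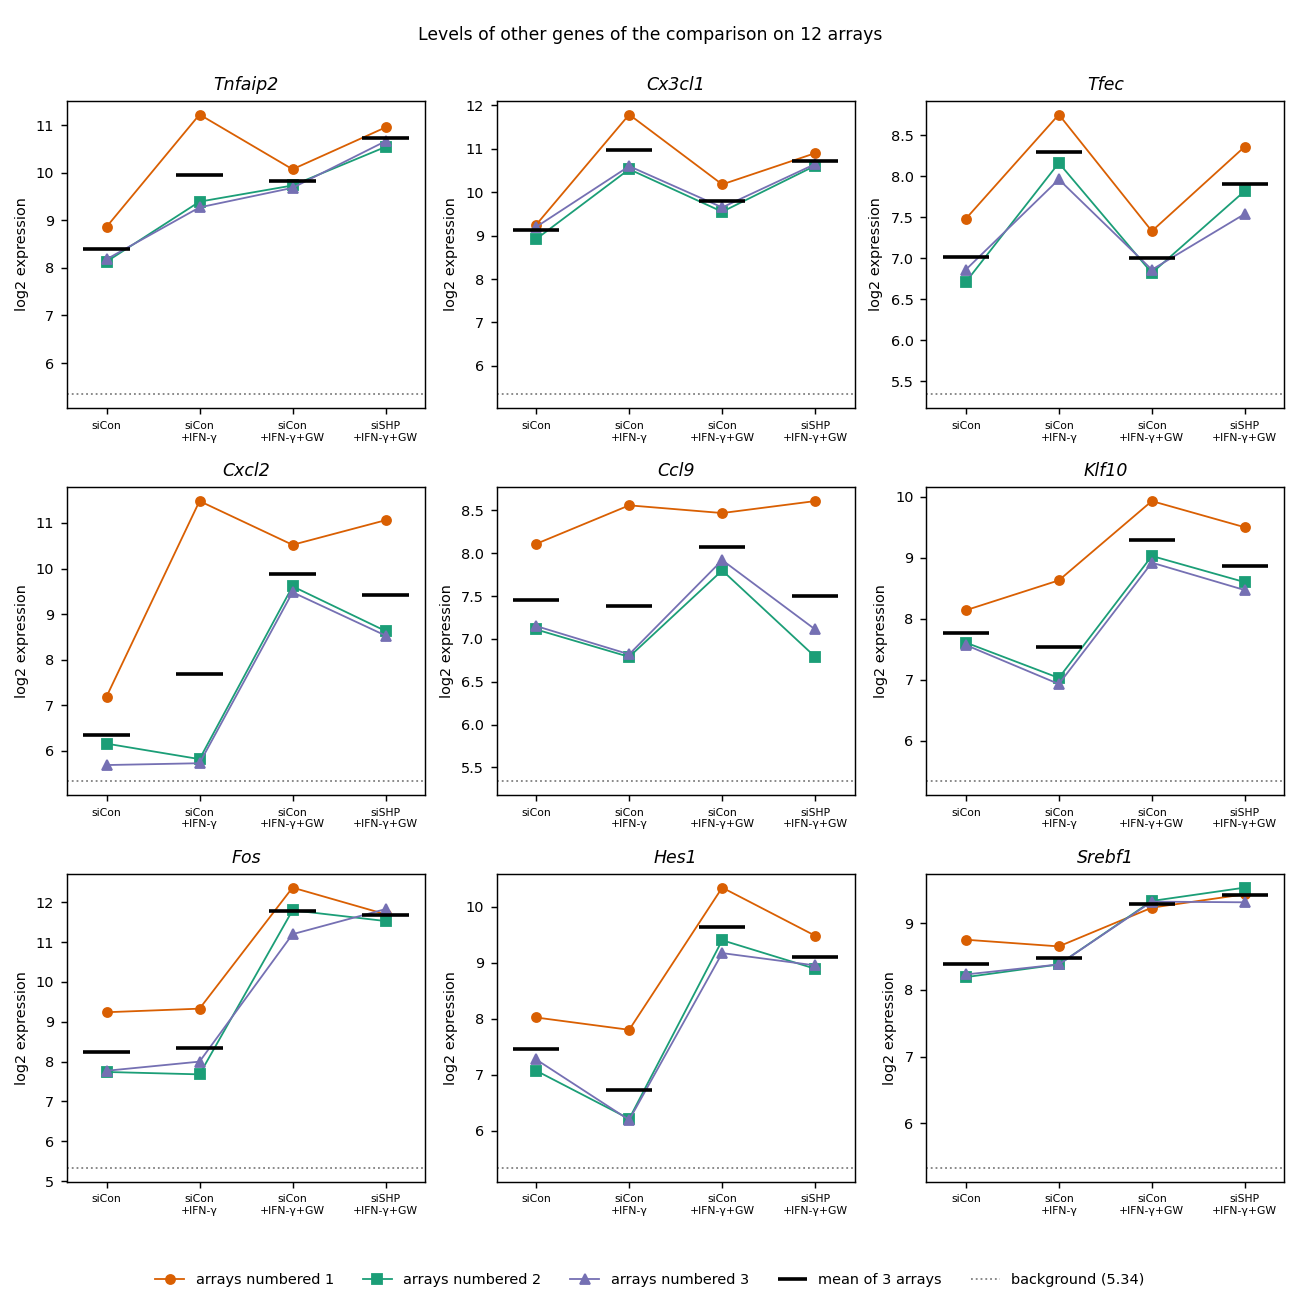
Log2 expression of 9 further genes on the 12 arrays, by group; points are single arrays, lines join arrays of the same number, black bars are means of 3 arrays and the dotted line is background (5.34). Tnfaip2, Cx3cl1 and Tfec are higher under SHP siRNA than on the control arrays in every number (Tnfaip2 by 0.88, 0.81 and 0.98), and Cxcl2 and Ccl9 are lower in numbers 2 and 3 only. Fos and Srebf1 differ in sign between numbers, and Hes1 is lower in every number but did not pass.

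The 21 genes lower without number 1 had a median difference of -0.63 there and of -0.00 in number 1, where 11 of them were negative. Cxcl2, a neutrophil chemokine, read 10.52, 9.61 and 9.48 on the control arrays and 11.06, 8.63 and 8.53 on the SHP siRNA arrays. It was higher by 0.54 in number 1 and lower in numbers 2 and 3, 1.95-fold without number 1 (log2 -0.96, SE 0.15, adjusted p = 0.018). Without number 1, Ccl9 fell by 0.91 (adjusted p = 0.0056), and the difference of Ccl3, which attracts macrophages, was -0.48 (adjusted p = 0.033, and 0.068 with the replicate block). In number 1 they differed by 0.14 and 0.40. These 3 chemokines had their levels raised with GW in numbers 2 and 3, by 3.77 for Cxcl2, 1.06 for Ccl9 and 4.24 for Ccl3 against interferon-γ alone; that comparison shares the control arrays with this one.

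Receptors and other genes made up the rest of the lower group. Rgs1, which damps G protein signalling, read 9.79, 7.74 and 7.46 on the control arrays and 10.04, 6.63 and 6.71 on the SHP siRNA arrays (-0.93 without number 1, SE 0.11, adjusted p = 0.0039). The chemokine receptor Cxcr4 fell by 0.90 (adjusted p = 0.0067) and the complement receptor C3ar1 fell by 0.79 (adjusted p = 0.011). Cyp1a1, a cytochrome of the aryl hydrocarbon receptor pathway, read 6.04 and 6.23 on the control arrays numbered 2 and 3 and lay under background on the SHP siRNA arrays, so that it fell by 0.70 and fell by 0.89 or more. The urokinase gene Plau fell by 0.72 (adjusted p = 0.0097) and the clock repressor Nr1d1 fell by 0.63 (adjusted p = 0.044, and 0.089 with the replicate block). In number 1 these genes differed by 0.25 (Rgs1), -0.00 (Cxcr4), 0.48 (C3ar1), -0.19 (Cyp1a1), -0.03 (Plau) and 0.21 (Nr1d1). The genes of this paragraph and Cxcl2 and Ccl9 were named because they were among the largest without number 1, a rule added after values were seen, and Ccl3 likewise.

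Small differences of the same sign in every number were also found on the lower side, though none of these genes passed in any fit named here. Rab27b, a GTPase of vesicle release, read 8.52, 8.27 and 8.20 on the control arrays and 8.07, 7.84 and 7.75 on the SHP siRNA arrays, with differences of -0.45, -0.43 and -0.45 and no overlap. Klf10, a factor induced by TGF-β, differed by -0.43, -0.43 and -0.45, and Dusp7, a phosphatase of ERK, by -0.66, -0.43 and -0.49. Ier5l differed by -0.83, -0.43 and -0.47, Irf2bpl by -0.63, -0.53 and -0.44 and Rasd1 by -0.97, -0.76 and -0.36. The groups did not overlap for Ier5l, but they overlapped for Klf10, Dusp7, Irf2bpl and Rasd1. Without number 1 the limma adjusted p of all these genes, with Rab27b, ran from 0.066 for Klf10 to 0.19 for Rasd1. By the smallest p over the 12 arrays, Dnmt3a, a DNA methyltransferase, differed by -0.38, Tuft1 by -0.32 and Fnip2 by -0.29, each with an adjusted p of 1.

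Immediate-early genes, which report acute signalling, did not pass in either direction. At an unadjusted p under 0.05 by limma over 12 arrays, 0 were higher and 2 lower, against 1.01% and 1.28% of all genes. Of 34 measured, 2 were positive in number 1, 7 in number 2 and 22 in number 3, with medians of -0.59, -0.15 and 0.22. Of all 18166 genes, 8710, 7866 and 7679 were positive in the 3 numbers, with medians of -0.01, -0.02 and -0.03. Fos, a subunit of AP-1, read 12.37, 11.80 and 11.20 on the control arrays and 11.70, 11.53 and 11.83 on the SHP siRNA arrays. The groups overlapped, and the spread lay mainly among the control arrays. Egr1 differed by -0.43, -0.11 and 0.37, Jun by -0.52, 0.06 and 0.60 and Atf3 by -0.69, -0.11 and 0.28 in the 3 numbers. Hbegf, a growth factor, differed by -1.22 in number 1 and by -0.19 and -0.11 in the others.

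Other genes that were higher with GW than with interferon-γ alone, in a comparison that shares the control arrays, also did not pass between the siRNAs. Hes1, a target of Notch, differed by -0.86, -0.51 and -0.22 (adjusted p = 0.27 without number 1) and Id1, an inhibitor of basic helix-loop-helix factors, by -0.77, -0.19 and -0.36 (adjusted p = 0.32). Srebf1, the regulator of fatty acid synthesis, read 9.23, 9.33 and 9.32 on the control arrays and 9.43, 9.53 and 9.31 on the SHP siRNA arrays. Insig1, a sterol sensor, differed by -0.27, -0.05 and -0.28, and the cholesterol exporter Abca1 by 0.35, -0.24 and -0.44. Of 19 LXR targets, 13 FXR targets, 17 PPAR targets and 17 cholesterol synthesis genes measured, 0 passed in either direction over 12 arrays or without number 1 by limma. At an unadjusted p under 0.05 over 12 arrays, 0 LXR targets were higher and 1 lower, and 1 FXR target higher and 0 lower. The PPAR and cholesterol synthesis genes had 0 in either direction. Over all genes, 1.01% were higher and 1.28% lower at this p.

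Genes tied to SHP itself mostly did not pass. Of 39 nuclear receptors and cofactors that bind SHP or act with it, 1 was higher without number 1 (2.56%, against 1.35% of all genes) and 0 lower. It was Ppard, a receptor for fatty acids, which read 8.72, 8.53 and 8.55 on the control arrays and 8.80, 9.21 and 9.41 on the SHP siRNA arrays (0.77 without number 1, SE 0.09, adjusted p = 0.004). Interferon-γ alone had raised Ppard by 1.22 without number 1. Of 19 bile acid genes measured, 7 had a group mean over background and 0 passed by limma in either fit. At an unadjusted p under 0.05 over 12 arrays, 0 were higher and 1 lower (1.01% and 1.28% of all genes). Cyp27a1, an enzyme of the acidic route of bile acid synthesis, differed by 0.54, 0.33 and 0.50 and did not pass (adjusted p = 0.47 without number 1).

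Of 14 inflammation genes listed with SHP, 3 were higher without number 1 (21.4%) and 0 lower, against 1.35% and 0.116% of all genes. They were Nos2, Ripk2 and Txnip. Interferon-γ alone had raised Ripk2 by 1.15 without number 1, whereas its change of Txnip was 0.20 (limma adjusted p = 0.34). The fitted rise of Nos2 was 0.93. Its siCon arrays numbered 2 and 3 (5.09 and 4.89) lay under background, so that rise has no exact size. Txnip, a partner of thioredoxin and of the NLRP3 inflammasome, read 9.61, 9.01 and 9.10 on the control arrays and 9.91, 10.02 and 9.80 on the SHP siRNA arrays (0.86 without number 1, SE 0.10, adjusted p = 0.0038). The 13 NF-κB genes and the 12 genes of the RNA interference machinery had 0 that passed in either direction with limma, with 0 at an unadjusted p under 0.05 over 12 arrays. The latter had medians of -0.06, -0.06 and -0.10 in the 3 numbers.

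**Figure D4:**
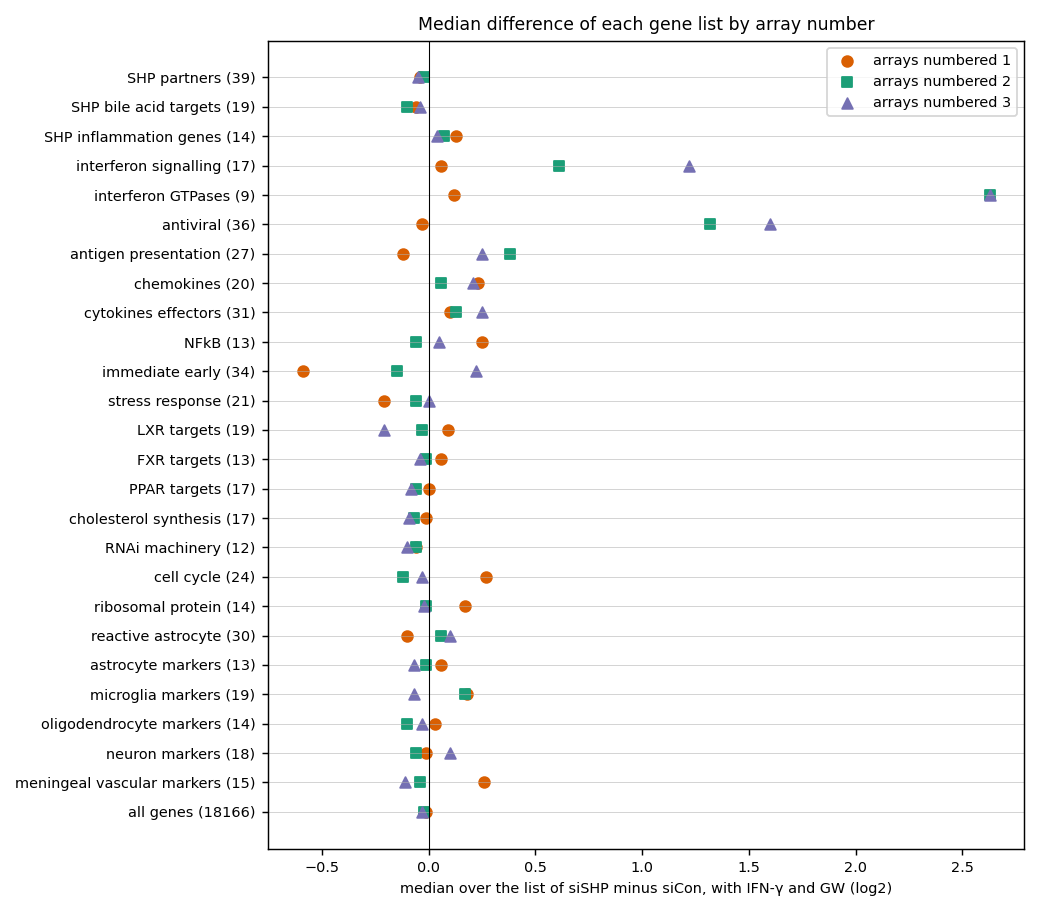
Median same-number difference, SHP siRNA minus control siRNA with IFN-γ and GW (log2), over each gene list and over all genes; symbols give the array number and the number in brackets gives the genes measured. The GTPase (2.63 and 2.63), antiviral (1.32 and 1.60) and interferon signalling (0.61 and 1.22) lists lie to the right in numbers 2 and 3 with number 1 near 0, while immediate-early genes lie to the left in number 1 (-0.59).

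Markers of cell types were checked because microglia also respond to interferon-γ. None of the 13 astrocyte or 19 microglia markers passed with limma over 12 arrays or without number 1, and at an unadjusted p under 0.05 over 12 arrays 1 astrocyte marker was lower and 0 microglia markers differed. Gfap, the astrocyte filament, read 11.81, 12.04 and 12.06 on the control arrays and 11.74, 12.06 and 12.04 on the SHP siRNA arrays. The summed level of the astrocyte markers ran from 13.88 to 14.26 (log2) on the control arrays and from 14.11 to 14.22 on the SHP siRNA arrays. That of the microglia markers ran from 12.80 to 13.11 and from 12.86 to 13.25, and all 19 were over background, so microglial RNA was present in both groups. Aif1, a microglia marker, read 8.73, 8.22 and 8.19 on the control arrays and 8.71, 8.12 and 8.22 on the SHP siRNA arrays, and Ptprc (CD45) differed by 0.60, 0.57 and 0.13. The part of microglia in the interferon genes was not tested.

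Of the other cell types, only neuron markers had members that passed. The summed level of 15 meningeal and vascular markers ran from 12.94 to 13.69 on the control arrays and from 12.88 to 13.59 on the SHP siRNA arrays, lowest in number 1 of both groups. That of 14 oligodendrocyte markers ran from 10.74 to 11.39 and from 10.83 to 11.35. In both lists 0 passed with limma in either fit, and 0 were at an unadjusted p under 0.05 over 12 arrays. Of 18 neuron markers, 12 were over background and 2 were higher without number 1 (11.1%, against 1.35% of all genes), Tubb3 and Nefm, with a summed level of 12.17 to 12.19 and 12.20 to 12.24. Tubb3, a tubulin, was under background on all control arrays and read 4.78, 5.84 and 6.11 on the SHP siRNA arrays, which puts its difference at 0.50 and 0.76 or more in numbers 2 and 3 (adjusted p = 0.0075 without number 1), and interferon-γ alone had raised it by 1.90 without number 1. Of 30 genes of reactive astrocytes, 4 were higher without number 1 (13.3%), among them Gbp2, and 0 lower. Over all genes the shares were 1.35% and 0.116%.

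The genes higher under SHP siRNA were then set against those that interferon-γ raised in siCon_IFNg over siCon, a comparison of 6 other arrays. Without number 1, only the arrays numbered 2 and 3 of that comparison were left, and interferon-γ raised 554 genes (3.05%) and lowered 302 (1.66%). Both comparisons then took each gene's spread from the same fit, so a gene of low spread passed more easily in both. The calls shared below are therefore not independent. Of the 246 genes higher under SHP siRNA, 224 (91.1%) were among the 554, which is 40.4% of them, and 0 were among the 302 lowered. Of the 21 lower genes, 12 were among the 302 lowered by interferon-γ and 0 among the 554. Across all genes the 2 differences correlated at r = 0.71; both come from arrays of the same numbers, and genes are not independent. The 330 interferon-γ genes that did not pass had a median difference of 0.28, and 310 of them were positive. With the replicate block and number 1 included, interferon-γ raised 108 genes (0.595%); their median difference under SHP siRNA was 0.40 over 12 arrays, and 0.22, 0.46 and 0.59 in the 3 numbers, and 45 (41.7%) were higher without number 1.

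For the 224 shared genes, the median difference without number 1 was 1.44 for interferon-γ alone over siCon, -1.35 for the control arrays with GW over interferon-γ alone, and 1.03 for SHP siRNA over the control arrays. The last 2 share the control arrays, so their opposite signs are not independent. Set directly against interferon-γ alone, the SHP siRNA arrays numbered 2 and 3 had a median difference of -0.22 over these genes, with 55 lower, 20 higher and the others not past the threshold; the genes were chosen on these same arrays. Cxcl9 differed by -0.17 (adjusted p = 0.62) and Irf8 by 0.29 (adjusted p = 0.18) from interferon-γ alone. Irf1 was higher by 0.63 (adjusted p = 0.0085) and Ccl7 by 0.75 (adjusted p = 0.03), whereas Socs1 differed by -0.82 (adjusted p = 0.045) and Sectm1b by -1.17 (adjusted p = 0.0079).

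**Figure D5:**
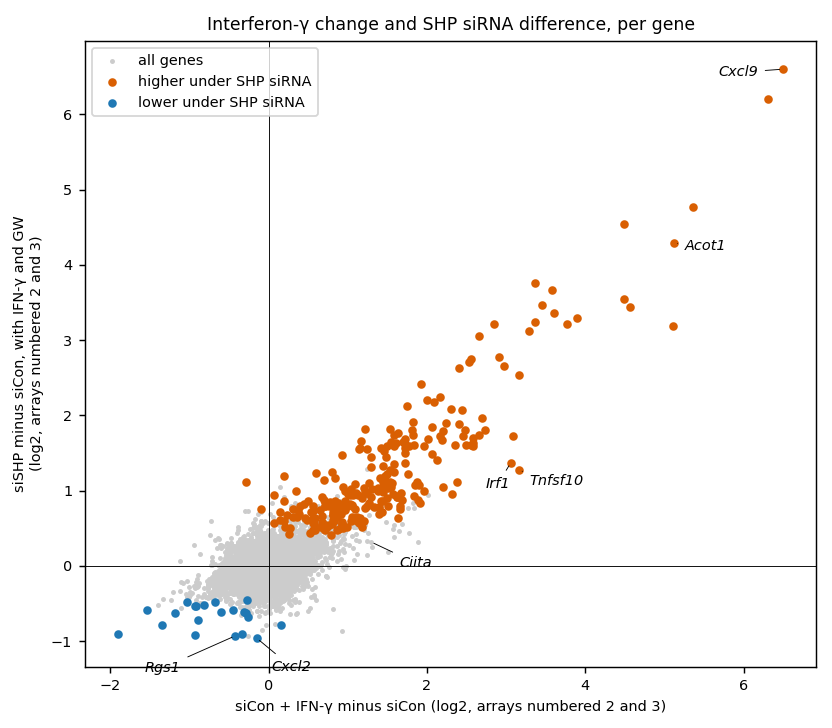
Difference of SHP siRNA over control siRNA with IFN-γ and GW against the change with interferon-γ alone over untreated cells, both in log2 from arrays numbered 2 and 3; each point is a gene, orange for the 246 higher and blue for the 21 lower under SHP siRNA. Points spread along a rising line (r = 0.71), from Cxcl9 at 6.50 and 6.60 at the top right to the lower genes at the bottom left, and Tnfsf10 (3.16 and 1.27) and Ciita (1.29 and 0.32) lie below most genes of a like interferon-γ change.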

How the data were processed

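The deposited table held log2 expression values of whole-transcript arrays, 1 value per row and array, made by the authors from total RNA extracted with Trizol and labelled with biotin, per the labels' protocols. Their background correction, summarisation and normalization are not given in the sources used here. Values ran from 1.01 to 13.43, from which log base 2 was taken. The series text says that 4 of the arrays belong to an older series, without naming them. Column medians ran from 5.51 to 5.67, and no further scaling was applied.

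Of 36685 rows, 18511 had exactly 1 gene in the platform annotation. For 291 genes with more than 1 row, the row of the highest mean was used, leaving 18166 genes. Background was set from 1344 receptor genes of the olfactory and vomeronasal families, and the number of arrays limits the precision.

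Groups came from the sample titles. The 4 group means were fitted over 12 arrays using lmFit, contrasts and eBayes of limma 3.58.1 (R 4.3.3), with Benjamini-Hochberg adjustment over all genes, and the fits were tested on simulated data. Deviations from the group mean correlated between same-numbered arrays (number 1, r = 0.63 to 0.77; number 2, 0.48 to 0.58; number 3, 0.43 to 0.55). Pairing was accepted because every r exceeded 0.1. The deviations within a group cancel out, so a shift of number 1 in every group also raises r in numbers 2 and 3. These r values therefore cannot show pairing in number 2 or number 3. The fit of number 1 against numbers 2 and 3 has 1 array a group in number 1 and takes the spread from the others. Python 3.11.15 with matplotlib 3.10.9 drew the figures.

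The members, lists, naming rule and alternatives were chosen with earlier results of these data known. Genes were named by the smallest p over 12 arrays, by the largest same-number differences of 1 sign, by list (up to 3 by smallest p) and from a panel, and then by the 10 largest differences without number 1. The last rule was added after values were seen. Promoters came from the RefSeq table of assembly GRCr8. Lists are described by counts and medians, with no test. A further gene of the panel is not reported here.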

Additional observations from a re-analysis of the deposited data

Results flagged for a closer look

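The siRNA difference in number 1 departed from that in numbers 2 and 3 for 131 genes, by a limma interaction test with 1 array a group in number 1. Below, each value is the difference in number 1 minus that in numbers 2 and 3, in log2, and each passed that test at an adjusted p under 0.05.

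Among chemokines the value was -4.31 for Cxcl9, -4.10 for Cxcl11, -2.71 for Cxcl10 and -2.15 for Ccl7, so these were less raised by SHP siRNA in number 1. It was 0.88 for Ccl3, which fell in numbers 2 and 3 only. Among factors and feedback genes it was -2.94 for Irf8, -2.32 for Irf7, -1.48 for Irf9, -1.44 for Stat2, -1.06 for Irf1, -2.45 for Socs1 and -2.54 for Usp18.

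Among GTPases the value was -5.64 for Ifgga4l, -3.74 for Ifgga2l2, -3.71 for Ifi47, -3.12 for Gbp7, -3.09 for Igtp and -2.53 for Irgm. Among antiviral genes it was -3.35 for Ifit3, -3.34 for Rsad2, -2.32 for Isg15, -1.98 for Samhd1 and -1.52 for Dtx3l. For class I genes it was -2.84 for Nlrc5, -2.82 for Tap1 and -1.72 for Psmb9.

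For the others it was -4.17 for Acot1, -3.79 for Sectm1b, -2.76 for Cd274, -1.89 for Hk2 and -1.44 for Themis2, and on the opposite side 1.27 for C3ar1 and 1.17 for Rgs1. For Cxcl9, Ifgga4l, Acot1, Sectm1b and Ifit3 some control arrays lay under background, so their values are not measured on both sides and have no exact size. Tnfaip2, Tfec, Cx3cl1 and Ripk2 did not pass this test (values of -0.02, 0.19, -0.30 and 0.48), which does not show that their differences are equal.

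Of 17599 rows without a gene name, which no comparison above uses, 22 (0.125%) passed without number 1, 19 higher under SHP siRNA and 3 lower, with the largest difference at 2.45. Over 12 arrays 0 of these rows passed.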

How the results depend on the processing

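The count of genes that passed was 0 over 12 arrays. It stayed 0 with replicate number as a block, which allows for a shift between array numbers. The block does not show that same-numbered arrays were paired. The count was also 0 with only the 6 arrays (with or without the block) and after centring on the medians or quantile normalization. A filter on low values, the mean of a gene's rows and an intensity trend gave 0 as well. Leaving out arrays gave 0 to 267 genes: 267 without replicate 1, 1 without siSHP_IFNg_GW replicate 1 (Majin, named after its values were seen) and 0 in the other cases. With number 1 as a batch block 1 gene passed, and in settings added after the data were seen 231 passed without replicate 1 with the replicate block and 196 with only the 4 arrays numbered 2 and 3. Of the 246 higher genes, 213 also passed in the first of these and 178 in the second. Tfec was the gene that passed with number 1 as a batch block, and the cause of these differences was not tested. Added to the fit without replicate 1, the block took the lower calls from 21 to 11, and among the named genes Ccl3 (adjusted p = 0.068) and Nr1d1 (0.089) lost theirs. The count of genes whose difference varied with number 1 was 131, 139 after centring on the medians, 145 after quantile normalization, 364 with the filter on low values, which tests 12612 genes, and 503 with an intensity trend. Over 90 named genes and 20 settings, 1581 of 1797 values kept direction and side of the threshold, 181 came to pass, 180 of them without number 1, and 35 changed sign, among them values of Ccl3, Rgs1, C3ar1 and Nr1d1, which were called lower without number 1. Fos (0.18), Egr1 (0.13) and Atf3 (0.08) did so without replicate 1 with the block and with only the 4 arrays. Leaving out arrays gave ranges across 0 of -0.71 to 0.08 for Ccl3, -1.66 to 0.19 for Rgs1, -1.12 to 0.04 for C3ar1, -1.10 to 0.11 for Nr1d1, -0.47 to 0.18 for Fos, -0.29 to 0.25 for Egr1, -0.23 to 0.33 for Jun, -0.40 to 0.08 for Atf3, -0.40 to 0.06 for Abca1, -0.10 to 0.08 for Gfap and -0.21 to 0.15 for Aif1. Of 520 list medians, 52 moved by more than their spread, and those of the GTPase, antiviral, interferon signalling and antigen presentation lists did not. The size of these 4 still depended on number 1. Over 12 arrays and without number 1, the medians were 1.79 and 2.63 for GTPases and 0.99 and 1.5 for antiviral genes. They were 0.57 and 0.77 for interferon signalling and 0.15 and 0.26 for antigen presentation. Nr0b2 stayed between 0.03 and 0.29 in all settings, under background, and fits without replicate 1 rest on 2 arrays a group.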
